A study of Mus musculus with 40 samples.

Results

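The 10 genes described here encode proteins that the liver secretes into blood plasma: Alb, Afp, Apoa1, Apoa2, Ttr, Trf, Fga, Fgb, Ahsg and Serpina6. They were picked by name out of 53647 listed genes, by Ensembl identifier, because their levels across 40 libraries of mouse larynx, trachea and esophagus had been seen to differ widely between libraries; those levels are therefore given as a description. All 10 were listed and all 10 passed the filter on low values (1 normalized count or more in 2 or more libraries), Ahsg, Fga, Fgb, Apoa2 and Serpina6 through no more than 16 libraries in which they reached 10 counts. The questions asked of them were which libraries held liver transcripts, and whether liver and heart transcripts were high in the same libraries.

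Bulk RNA was sequenced from wild-type FVB/N mice without treatment, in 20 groups of 2 libraries. Larynx (called primitive laryngopharynx at E10.5), trachea and esophagus were taken at 5 ages (E10.5 and E11.5, then E13.5, and finally E15.5 with E18.5), and larynx also at birth (P0) and in adults of 6 to 8 weeks. The embryonic tissues were dissected and pooled, from 20 animals at E15.5 and 10 animals at the other embryonic ages, so a library is a pool and not an animal. The labels show 2 kinds of library: 30 carry a short code (all 3 tissues, E10.5 to E18.5), and 10 carry a 6-base index (E15.5 in all 3 tissues, and the P0 and adult larynx, named vocal fold in their titles). Nothing in the labels ties libraries of different tissues to the same embryos, and p-values measure the spread between libraries.

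Depth and composition differed between the kinds. Total counts ran between 22553115 and 35831461 in the index libraries and between 3286391 (E11.5 larynx library 1) and 26378614 in the short-code libraries. The mitochondrial ribosomal RNAs took 0.05% to 0.196% of the counts of index libraries and 9.3% to 32.2% of those of short-code libraries. In 3 libraries (E11.5 larynx library 2, and the short-code E15.5 larynx library 2 and trachea library 2) 686 to 1108 of 1194 olfactory receptor genes had counts, against 80 to 319 in the other 37 libraries; results that rest on these 3 are given with and without them.

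Hepatocytes and their fetal precursors secrete most plasma proteins, and in the embryo the visceral endoderm of the yolk sac makes several of the same proteins. Alb encodes serum albumin, the most abundant plasma protein of adults, and Afp encodes alpha-fetoprotein, its neighbour on the chromosome and its fetal counterpart. Apoa1 and Apoa2 encode the main proteins of high-density lipoprotein, also made in the intestine. Ttr encodes transthyretin, the carrier of thyroid hormone and retinol-binding protein, which the choroid plexus of the brain also makes. Trf encodes transferrin, the iron carrier, which several cell types outside the liver express. Fga and Fgb encode the alpha and beta chains of fibrinogen, Ahsg encodes fetuin-A, and Serpina6 encodes corticosteroid-binding globulin, the carrier of glucocorticoids. Nuclear factors such as HNF1 and HNF4 alpha bind the promoters of many of these genes in hepatocytes.

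On GRCm39, the build the files use, Alb lay on chromosome 5 at 90608647-90624696 (plus strand) and Afp followed it at 90638584-90656766. Fga lay on chromosome 3 at 82933383-82940934 (plus) next to Fgb at 82947448-82957170 (minus). Apoa1 and Trf lay on chromosome 9, Apoa2 on 1, Serpina6 on 12, Ahsg on 16 and Ttr on 18. The promoters of these neighbours are shown because the genes of each pair were mostly high in the same libraries, and because they hold the letters of the HNF1 core motif. Members on other chromosomes were mostly high in those libraries too, and the balance of Afp and Alb changed with age, as described below. Sequences are from RefSeq (GRCm38.p6), 250 bases before to 50 after the gene's start, 5′ to 3′ on the gene's own strand; capitals mark GTTAAT or its reverse complement ATTAAC.
Alb (chr5:90460620-90460919, plus): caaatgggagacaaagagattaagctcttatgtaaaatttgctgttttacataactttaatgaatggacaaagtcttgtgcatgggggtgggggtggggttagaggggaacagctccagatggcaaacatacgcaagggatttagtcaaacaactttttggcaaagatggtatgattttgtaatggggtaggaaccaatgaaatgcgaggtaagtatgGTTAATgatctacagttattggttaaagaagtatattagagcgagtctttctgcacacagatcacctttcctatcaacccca
Afp (chr5:90490464-90490763, plus): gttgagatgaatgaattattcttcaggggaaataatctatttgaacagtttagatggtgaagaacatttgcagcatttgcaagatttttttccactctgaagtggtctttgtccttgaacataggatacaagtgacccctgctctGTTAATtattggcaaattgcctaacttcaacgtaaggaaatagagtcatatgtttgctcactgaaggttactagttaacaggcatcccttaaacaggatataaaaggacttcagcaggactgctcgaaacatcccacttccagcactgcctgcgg
Fga (chr3:83025903-83026202, plus): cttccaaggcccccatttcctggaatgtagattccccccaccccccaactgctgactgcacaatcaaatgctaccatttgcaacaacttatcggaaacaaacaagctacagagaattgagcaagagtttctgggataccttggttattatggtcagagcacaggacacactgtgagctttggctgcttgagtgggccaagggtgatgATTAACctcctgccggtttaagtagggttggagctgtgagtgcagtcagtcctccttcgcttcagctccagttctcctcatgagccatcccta
Fgb (chr3:83049814-83050113, minus): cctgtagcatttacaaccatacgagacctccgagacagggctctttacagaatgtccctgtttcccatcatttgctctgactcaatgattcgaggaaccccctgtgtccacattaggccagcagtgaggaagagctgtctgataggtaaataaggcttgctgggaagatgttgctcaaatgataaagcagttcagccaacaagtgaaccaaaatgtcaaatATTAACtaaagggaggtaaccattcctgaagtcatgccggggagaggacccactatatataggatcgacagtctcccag
The match began 32 bases before the start in Alb, 105 in Afp, 43 in Fga and 29 in Fgb. On either strand these letters occurred in 7.1% of 32851 promoters of this length, and in the promoters of 4 of the 7 members used here. The motif was chosen after the sequences were seen, and a match of letters shows no binding.

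In the larynx at E10.5 and E11.5 the liver genes other than Trf and Ttr, which are described below, were low. In the esophagus and trachea of the same ages they ranged over orders of magnitude between libraries. Levels are counts scaled to 1e6 per library (CPM), and a gene is called held by a library at 10 counts or more. Afp, the leading member, had 0 and 5.42 CPM in the E10.5 larynx and 7.30 and 3.70 CPM in the E11.5 larynx. In the esophagus Afp had 484 and 507 CPM at E10.5, and 21.4 and 682 CPM at E11.5. In the trachea it had 838 and 20.1 CPM at E10.5, and 580 and 795 CPM at E11.5. Every esophageal and tracheal library of these ages therefore lay above all 4 laryngeal ones for Afp, but libraries of the same group could lie far apart, as in the E10.5 trachea.

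Alb also ranged widely between these libraries. It had 0.0715 and 0 CPM in the E10.5 larynx and 2.74 and 0.0860 CPM in the E11.5 larynx. In the E10.5 esophagus Alb had 48.3 and 78.3 CPM, and in the E10.5 trachea 107 and 2.27 CPM. At E11.5 it had 5.39 and 201 CPM in the esophagus and 394 and 484 CPM in the trachea. The E10.5 trachea library 2 and the E11.5 esophagus library 1 were thus low for Alb and Afp alike.

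**Figure D1:**
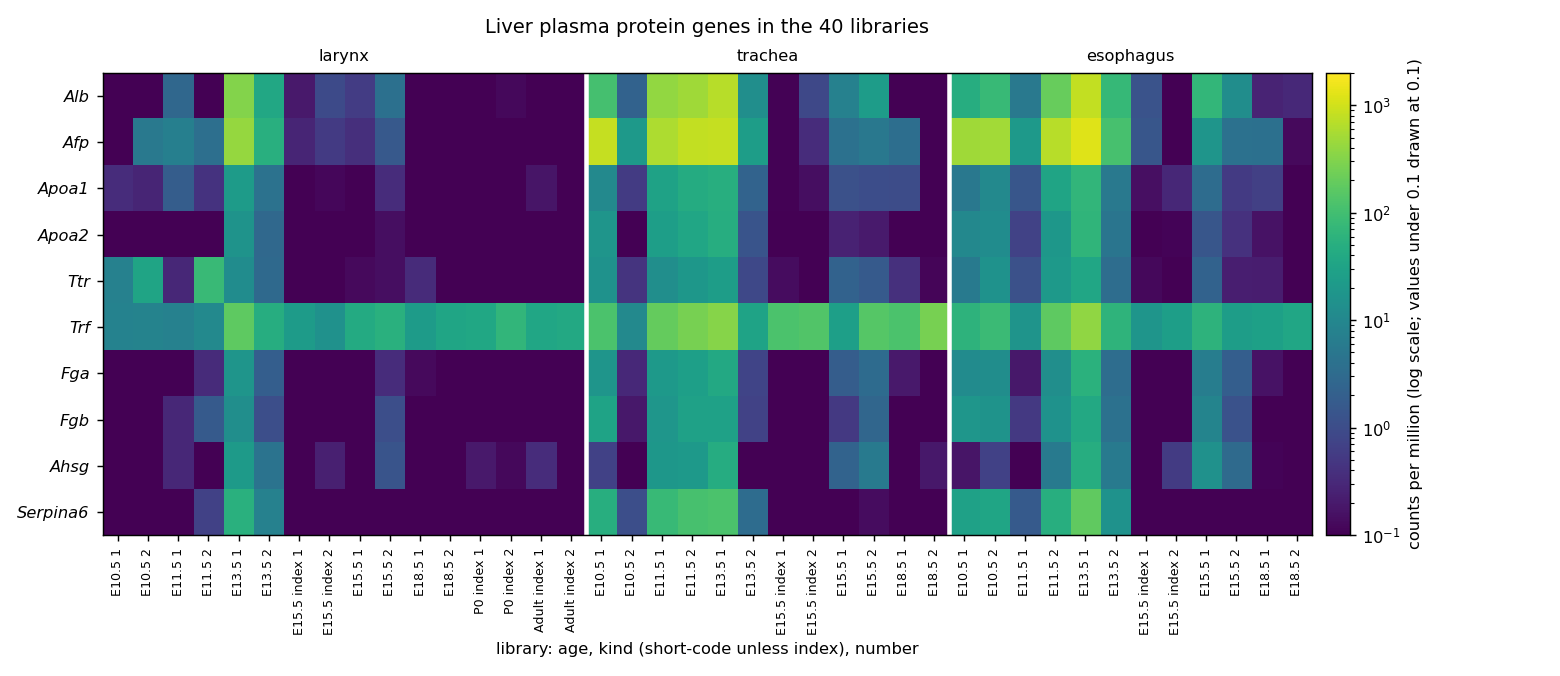
Level of each of the 10 genes (rows) in each of the 40 libraries (columns, by tissue and then age), as CPM on a logarithmic colour scale. The liver genes fill most of the E13.5 columns and of the early tracheal and esophageal columns. They do so less in the E10.5 trachea library 2, which held 4 of the 10, and the E11.5 esophagus library 1, which held 7. The E13.5 trachea library 2 held 8, with Ahsg at 0.0776 CPM. Library 1 is brighter than library 2 at E13.5 in each tissue, while Trf is present in all 40 libraries.

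At E13.5 all 6 libraries, larynx included, held at least 8 of the 10 genes, and 5 of them held all 10. Alb had 317 and 38.3 CPM in the larynx, 682 and 13.6 CPM in the trachea and 799 and 77.2 CPM in the esophagus. Afp had 416 and 51.2 CPM in the larynx, 846 and 24.6 CPM in the trachea and 1232 and 113 CPM in the esophagus. In each tissue the first value, of library 1, was the higher. Summed over the 8 genes other than Trf and Ttr, library 1 stood 7.87-fold above library 2 in the larynx, 39.9-fold in the trachea and 10.8-fold in the esophagus. The esophagus library 1 had the highest sum of the 40 libraries, 2484 CPM.

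The minor members kept the same order of libraries at E13.5. Serpina6 had 53.3 and 7.85 CPM in the larynx, 123 and 3.26 CPM in the trachea and 176 and 15.6 CPM in the esophagus. Apoa1 had 23.1 and 4.16 CPM in the larynx, 49.8 and 2.33 CPM in the trachea and 69.0 and 5.58 CPM in the esophagus. Fga had 17.3 and 1.92 CPM in the larynx, 39.3 and 0.776 CPM in the trachea and 56.4 and 3.50 CPM in the esophagus. Across the 8 genes the ratio of library 1 to library 2 was lowest in the larynx for Ahsg, at 5.17, and highest there for Fgb, at 12.2. In the trachea Ahsg departed from the rest, with 1064 counts in library 1 and 1 count in library 2, where the other 7 genes had 9 to 317 counts.

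After E13.5 the liver genes dropped away, and at E15.5 they were highest in the short-code esophagus and trachea. The 8 genes other than Trf and Ttr summed there to 122.4 and 23.84 CPM in the esophagus, with 9 and 7 members held, and to 17.98 and 42.18 CPM in the trachea, with 7 and 8 held. In the E15.5 index libraries Alb ran from 0 to 1.28 CPM over all 3 tissues. In the short-code E15.5 esophagus Alb had 69.6 and 12.65 CPM, Afp 17.6 and 4.03 CPM, Ahsg 15.1 and 3.04 CPM and Fgb 8.63 and 1.22 CPM. In the short-code E15.5 trachea Alb had 7.90 and 24.04 CPM, the second of these in a library with many olfactory receptor genes. In the short-code E15.5 larynx it had 0.571 and 3.93 CPM, again with the higher value in such a library.

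At E18.5 the sum over the 8 genes ran from 0.156 to 5.30 CPM, and in the P0 and adult larynx from 0.140 to 0.576 CPM. Alb had 12 counts over all 6 E18.5 libraries together and 6 counts over the 4 later ones. Afp was the main exception at E18.5, with 72 counts in the esophagus library 1 and 74 counts in the trachea library 1, where Alb had 5 counts and 0 counts. In the other 4 libraries of that age Afp had 0 to 2 counts. Apoa1, at 12 and 20 counts, was the only other one of the 8 genes that reached 10 counts in those libraries 1. Over the whole series 14 of 40 libraries held at least 8 of the 10 genes, 10 held all of them, and 11 held a single member, which was Trf.

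Trf stood apart from the other members, since no library was without it. In all 40 libraries it reached at least 26 counts, and its level in the larynx was 7.94 and 8.44 CPM at E10.5, 174 and 48.1 CPM at E13.5 and 35.4 and 39.6 CPM in adults. At E18.5 the trachea had 120.5 and 265 CPM of Trf, whereas the larynx had 23.1 and 34.0 CPM and the esophagus 27.5 and 34.65 CPM. The index libraries at E15.5 gave the same order, with 122 and 135 CPM in the trachea, 22.7 and 15.1 CPM in the larynx and 17.6 and 25.3 CPM in the esophagus. In both sets the tracheal libraries lay above all others, and the 8 members other than Trf and Ttr summed to at most 5.30 CPM in these libraries. The short-code E15.5 libraries did not keep this order. All 10 members summed there to 46.79 and 190.1 CPM in the trachea, of which the 8 genes took 17.98 and 42.18 CPM. In the larynx the sums were 44.4 and 63.2 CPM, of which the 8 genes took 1.078 and 8.713 CPM. In the esophagus they were 184.7 and 48.54 CPM, of which the 8 genes took 122.4 and 23.84 CPM. The rest was Trf and Ttr, lower in tracheal library 1 than in both laryngeal libraries. Averaged over the 5 embryonic ages, Trf had a lower level in larynx than in trachea, with a log2 difference (larynx minus trachea) of -2.25 ± 0.46 (standard error; edgeR quasi-likelihood test, adjusted p = 0.0280). Afp was the other member called in that comparison, and neither was called without any 1 of 10 of the 20 libraries. Between trachea and esophagus the log2 difference was 0.85 ± 0.44 (adjusted p = 0.999 by the same edgeR test).

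Genes of the thyroid follicle varied widely among the late libraries that held Trf. The summed level of 11 thyroid genes, led by Tg, the precursor of thyroid hormone, was 10130 CPM and 6795 CPM in the trachea of E18.5 embryos, 24.2 and 562 CPM in the E18.5 larynx and 3453 and 1947 CPM in the E18.5 esophagus. In the E15.5 index libraries it was 9572 and 1042 CPM in the trachea, 1668 and 310 CPM in the larynx and 24.8 and 152 CPM in the esophagus. In the short-code E15.5 trachea it was 7.33 and 1139 CPM. In the larynx and the esophagus of that set it was 2738 and 2268 CPM, and 7.35 and 11.2 CPM. Trf and the thyroid genes were both highest in the trachea at E18.5, but the esophageal libraries, also rich in thyroid transcripts, had about as much Trf as the laryngeal ones. Schwann cell genes, another list whose cells can express transferrin, summed to 191 to 229 CPM in the E18.5 trachea and 157 to 198 CPM in the other 4 libraries of that age. Their part in the level of Trf was not tested.

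**Figure D2:**
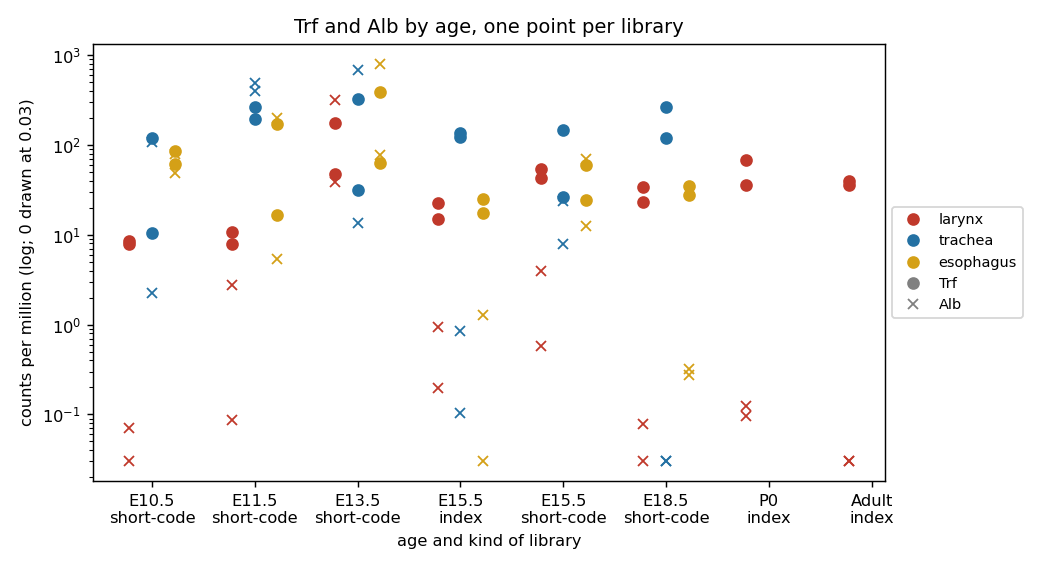
Level of Trf (circles) and Alb (crosses) in each library on a logarithmic axis of CPM, by age and kind of library and coloured by tissue; 0 is drawn at 0.03. Alb falls away after E13.5 while Trf stays between 15.1 and 265 CPM from E15.5 on, and its highest points at E18.5 are both tracheal.

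Ttr was the second member with a pattern of its own, and it was plain in 3 of the 4 libraries of the early larynx. It had 7.73 and 32.1 CPM in the E10.5 larynx and 0.304 and 82.1 CPM in the E11.5 larynx, the highest level of Ttr in the series. In these 4 libraries the sum over the 8 other liver genes without Trf was 0.501, 5.76, 12.5 and 6.88 CPM. In 3 of the 4 libraries Ttr was thus above that sum, and in the E11.5 library 1 it was below it, as at E13.5, where Ttr had 12.3 and 2.99 CPM in the larynx beside 878 and 112 CPM of the 8 genes. The list of 10 genes of the choroid plexus, a tissue known for Ttr, summed to 92.21 and 70.63 CPM in the E10.5 larynx and 94.63 and 76.11 CPM in the E11.5 larynx, with 7, 9, 3 and 9 genes held. This sum did not follow Ttr and was led at E11.5 by Enpp2, at 42.3 and 26.66 CPM, and Sostdc1, at 31.04 and 12.99 CPM. Otx2, a homeobox gene of the anterior neural plate and its derivatives, was 54.1 and 9.84 CPM in the E10.5 larynx and 0 and 4.13 CPM in the E11.5 larynx. Kcne2, a potassium channel subunit of the choroid plexus, was 0.358 and 1.84 CPM at E10.5 and 0 and 3.35 CPM at E11.5. Otx2 and Kcne2 were named after their values were seen, and their part in the level of Ttr was not tested. The E11.5 library with the highest Ttr was also the library with 1108 olfactory receptor genes, and without it the highest level of Ttr in the series was 35.2 CPM, in the E13.5 esophagus.

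The balance among the members changed with age within the libraries that held them. Afp exceeded Alb in 5 of 6 libraries at E10.5, in all 6 at E11.5 and in all 6 at E13.5, and at E15.5 in 3 of 6 index libraries and 0 of 6 short-code libraries. The share of Afp in the counts of Afp and Alb does not depend on the amount of liver RNA if both genes come from the same cells. Whether they did was not tested. This share was 86.6% to 90.9% at E10.5 (4 libraries), 59.5% to 79.9% at E11.5 (4), 55.4% to 64.4% at E13.5 (6) and 17.8% to 33.3% at E15.5 (4, short-code). Only libraries with at least 100 counts of the pair were used. The shares lay within 10 percentage points of each other at E10.5 and E13.5 although the amounts did not, and were wider apart at E11.5 and E15.5. At E13.5 the larynx gave 56.8% (95% Wilson interval 56.0% to 57.5%) in library 1 and 57.2% (55.0% to 59.4%) in library 2, which held 8.13-fold less Afp. These intervals cover counting error only.

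At E11.5 the share differed between organs. It was 59.5% (58.9% to 60.2%) and 62.1% (61.5% to 62.7%) in the trachea and 79.9% (75.8% to 83.5%) and 77.2% (76.6% to 77.9%) in the esophagus. The esophageal libraries, which differed widely in the level of Afp, thus lay together and above the tracheal ones. This split was seen before it was described, and no test of it is given.

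Serpina6 left the profile altogether by E15.5. Against Alb, in libraries with at least 100 Alb counts, its share was 29.7% to 37.6% at E10.5 (3 libraries), 16.95% to 19.9% at E11.5 (3) and 14.4% to 19.4% at E13.5 (6). At E15.5 the short-code esophagus had 1145 and 279 counts of Alb and 0 counts of Serpina6, and 3 counts would have been a share of 0.262% and 1.08%. The trachea had 124 and 350 counts of Alb with 0 and 2 counts of Serpina6. Serpina6 was at 0 in all 6 libraries of E18.5, so that its level at E13.5 was at least 499-fold higher in the larynx, 1090-fold in the esophagus and 984-fold in the trachea, with 3 counts over both libraries as the floor. Without library 1 of E13.5 these bounds were 128, 177 and 50.7, in a comparison added after the data were seen.

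Ahsg moved the other way. Its share against Alb was 0.358% to 0.859% at E10.5 (3 libraries), 2.75% to 4.60% at E11.5 (3), 0.568% to 10.1% at E13.5 (6) and 17.8% to 22.98% at E15.5 (4). The low value at E13.5 was that of the trachea library 2, with 1 count of Ahsg beside 175 of Alb. The other 5 libraries of that age lay between 5.63% and 10.1%, above every E10.5 and E11.5 library.

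Of the remaining members, the fibrinogen chains had a share against Alb that was low at E11.5 and E13.5. Fga stood at 14.1% to 19.6% at E10.5, 4.88% to 6.14% at E11.5, 4.33% to 6.60% at E13.5 and 8.84% to 18.95% at E15.5. The share of Apoa2 had a median of 14.1% at E10.5, 6.74% at E11.5, 6.63% at E13.5 and 2.55% at E15.5. Per kilobase of annotated exon, counted over all transcripts of a gene, genes can be compared only roughly. On that scale Afp was the leading member at E10.5 in the esophagus libraries, with 71.1% and 64.3% of the summed level of all 10 genes. Alb had 7.21% and 10.1%. At E13.5 in the esophagus Afp had 40.7% and 37.7% and Alb 26.8% and 26.2%, and at E15.5 in the short-code esophagus Afp had 9.62% and 8.74% and Alb 38.6% and 27.9%.

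These shares are given by age as a description with no test, since they were chosen after their values had been seen. At E15.5 (n = 4) the mean share of Afp was 23.9% ± 6.8, against 59.0% ± 3.3 at E13.5 (SD, n = 6), that of Serpina6 0.142% ± 0.284 against 16.8% ± 1.8, and that of Ahsg 19.8% ± 2.2 against 6.04% ± 3.10. In each of the 3 shares the libraries of the later age did not overlap those of the earlier one. Without the trachea library that had many olfactory receptor genes the 3 differences were -33.1, -16.8 and 14.01 percentage points (n = 3 against 6). At E11.5 the mean Afp share was 69.7% ± 10.4, against 89.0% ± 1.8 at E10.5 (SD, n = 4 each), again without overlap, while between E13.5 and E11.5 all 3 shares overlapped. Not every share against Alb was apart between E15.5 and E13.5: those of Apoa2, Fga and Fgb were, but those of Apoa1, Ttr and Trf overlapped. Apoa1 stood at 4.11% to 12.68% at E15.5 and 6.747% to 14.63% at E13.5. Trf stood at 46.34% to 85.88% at E15.5 and 32.26% to 69.98% at E13.5. The organs differed between ages: libraries of the larynx entered at E13.5 alone, and the shares at E10.5, E11.5 and E15.5 came from esophagus and trachea. Libraries of an age may also share embryos.

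**Figure D3:**
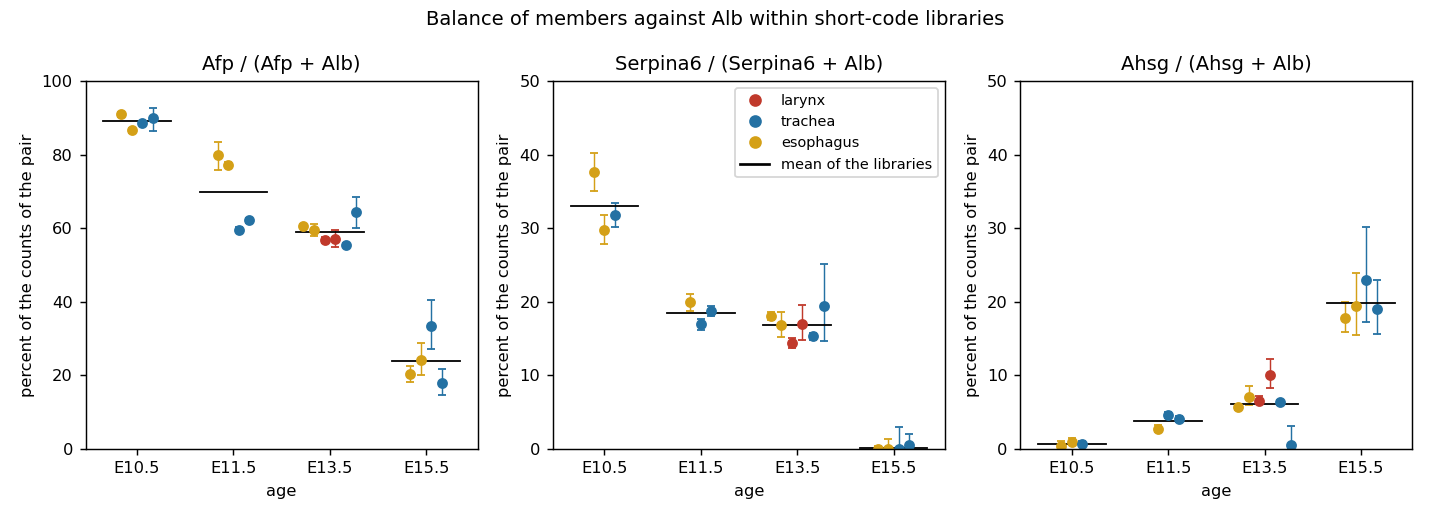
Share of Afp, Serpina6 and Ahsg in the counts of each gene plus Alb, per short-code library and age, with 95% Wilson intervals and the mean of each age as a line. Afp drops to 17.8% to 33.3% and Serpina6 to at most 0.568% at E15.5, where Ahsg reaches 17.8% to 22.98%.

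Other plasma protein genes of hepatocytes were found in the same libraries, though not only there. At E13.5 the lists of hepatocyte enzymes and transcription factors differed less between library 1 and library 2 than the members did. Of 30 other plasma protein genes, 26 were held by each of 6 libraries, the E11.5 esophagus library 2, both E11.5 tracheal libraries and library 1 of each E13.5 tissue, and 10 by the E13.5 trachea library 2. Apob, the protein of low-density lipoprotein, had 57.2 and 14.5 CPM in the E13.5 larynx, 91.3 and 8.93 CPM in the trachea and 97.7 and 22.4 CPM in the esophagus. Hnf4a, which encodes HNF4 alpha, had 2.77 and 0.888 CPM, 7.15 and 0.466 CPM, and 25.2 and 1.51 CPM in the same libraries. Library 1 was the higher in each tissue for both genes. Summed, the 30 other plasma proteins were 4.49-fold, 19.8-fold and 7.92-fold as high in library 1 in the larynx, trachea and esophagus. The enzyme list was 1.61-fold, 1.88-fold and 2.4-fold as high, and the transcription factor list 1.11-fold, 1.17-fold and 1.21-fold. The sum of the other plasma proteins was 736 CPM in the E13.5 esophagus library 1. It was also 698.1 CPM in the E15.5 index esophagus library 2, where the 8 members without Trf and Ttr summed to 1.005 CPM. In the adult larynx it was 138.9 and 104.2 CPM, above library 2 of the E13.5 larynx (58.62 CPM), trachea (26.7 CPM) and esophagus (92.95 CPM). The factor sum was highest, at 94.25 CPM, in the E15.5 index esophagus library 2. The enzyme sum was highest, at 332.4 CPM, in the adult larynx library 2.

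Likeness to the members was measured as Pearson's r of log2(CPM + 1) with the members' mean over 40 libraries, among 16683 other protein-coding genes. The 15 genes with the highest r included Fgg, Plg, Serpinf2, Ambp, Kng1, Apob, Apom, Itih1, Serpind1, Serpina10, F10, Cpb2, Afm and Pla2g12b, with r of 0.976 for Fgg, the gamma chain of fibrinogen, to 0.936 for Pla2g12b. Of the 15, 11 were on the lists of hepatocyte genes. Over the 20 differences between the libraries of a group, which take out tissue and age, 11 of the 15 came out again among the 15 most alike, and Serpina1a, Slc2a2, Hnf4a and Habp2 joined them with r of 0.969, 0.964, 0.953 and 0.953. Reads of Serpina1a may be shared with its near-identical copies. The libraries share totals and dissections, so these r are descriptions.

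The members themselves were alike to different degrees. With the mean of the other 9 genes, over 40 libraries, r was 0.981 for Apoa2, 0.980 for Apoa1 and Fga, 0.965 for Fgb, 0.959 for Alb, 0.956 for Serpina6 and 0.943 for Afp. It was lower for Ahsg (0.811), Ttr (0.720) and Trf (0.633). Not every hepatocyte gene followed them: Prox1, which is also a gene of lymphatic vessels and other tissues, had 14.6 CPM in the E13.5 esophagus library 1 and 35.05 CPM in library 2, and Sardh, an enzyme of sarcosine breakdown, had 47.9 and 47.8 CPM in the E13.5 trachea.

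The E11.5 esophagus library 2 held further genes beside the liver set. Cubn, the cobalamin and lipoprotein receptor of yolk sac, gut and kidney, had 25.3 CPM there and no more than 8.36 CPM in any other library. Rhox5, a homeobox gene of the extraembryonic endoderm, had 6.44 CPM there, against at most 2.48 CPM elsewhere, and Tdh had 11.25 CPM there, against at most 4.66 CPM. Apoa4, an apolipoprotein of gut and yolk sac named after its values were seen, had 7.21 CPM there, against at most 1.82 CPM. The list of 10 yolk sac endoderm genes summed to 62.1 CPM in this library and to 11.0 CPM in the E11.5 esophagus library 1, and in the E13.5 libraries it ran from 11.53 to 15.52 CPM. The list of 14 genes of stomach, pancreas and intestine summed to 40.04 CPM in this library and 3.59 CPM in library 1. Their part in the level of Alb, Afp and the other members in that library was not tested.

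Blood cell genes of the fetal liver were present far more widely than the plasma protein genes. The list of 13 erythroid and granulocyte genes, led by Hba-a1, an alpha-globin gene that circulating red cells carry into every tissue, summed to 359 CPM or more in all 40 libraries. At E13.5 it had 3344 and 3383 CPM in the larynx, 7505 and 1880 CPM in the trachea and 6989 and 3471 CPM in the esophagus. It was thus 0.989-fold, 3.99-fold and 2.01-fold as high in library 1 as in library 2, against 7.87-fold, 39.9-fold and 10.8-fold for the 8 liver genes.

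Liver and heart genes were mostly not higher in the same library of a group, but in most groups at least 1 of the 2 sums differed less than 2-fold. The heart list held 9 genes not shared with skeletal muscle, led by Myh6, a myosin of atrial and ventricular muscle, and Myl7, the atrial light chain. Its sum had 6720 and 10640 CPM in the E13.5 larynx, 2825 and 4299 CPM in the trachea and 446 and 4554 CPM in the esophagus. In each tissue library 2 had the more heart RNA, while library 1 had the more liver RNA: the ratio of library 1 to library 2 was 0.631, 0.657 and 0.0978 for the heart genes. The E10.5 trachea was likewise opposite, with 1164 and 2048 CPM of heart genes beside 1072 and 24.7 CPM of the 8 liver genes, and so was the E11.5 trachea, with 2940 and 315 CPM of heart genes beside 1168 and 1546 CPM.

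Libraries with liver RNA and next to no heart RNA also occurred. The E11.5 esophagus library 2 had 1019 CPM of the 8 liver genes and 21.9 CPM of the 9 heart genes, and the E10.5 esophagus library 1 had 607 and 27.1 CPM. The E10.5 trachea library 2 had the opposite makeup, while the 6 libraries with the most heart RNA, 2825 to 10640 CPM, had 46.7 to 1862 CPM of the liver genes. Of the 10 groups with at least 10 CPM of the 8 liver genes in either library, liver and heart moved in the same direction between the libraries in 3, and of all 20 groups in 6. With 1 CPM added to each sum, both sums differed at least 2-fold in 2 groups only, and in 1 of these the direction was the same. The direction in the other groups thus rested on a small difference in at least 1 sum. In the short-code E15.5 esophagus library 1 had more of both, with 122.4 and 23.84 CPM of the 8 liver genes and 76.22 and 29.01 CPM of the heart genes.

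**Figure D4:**
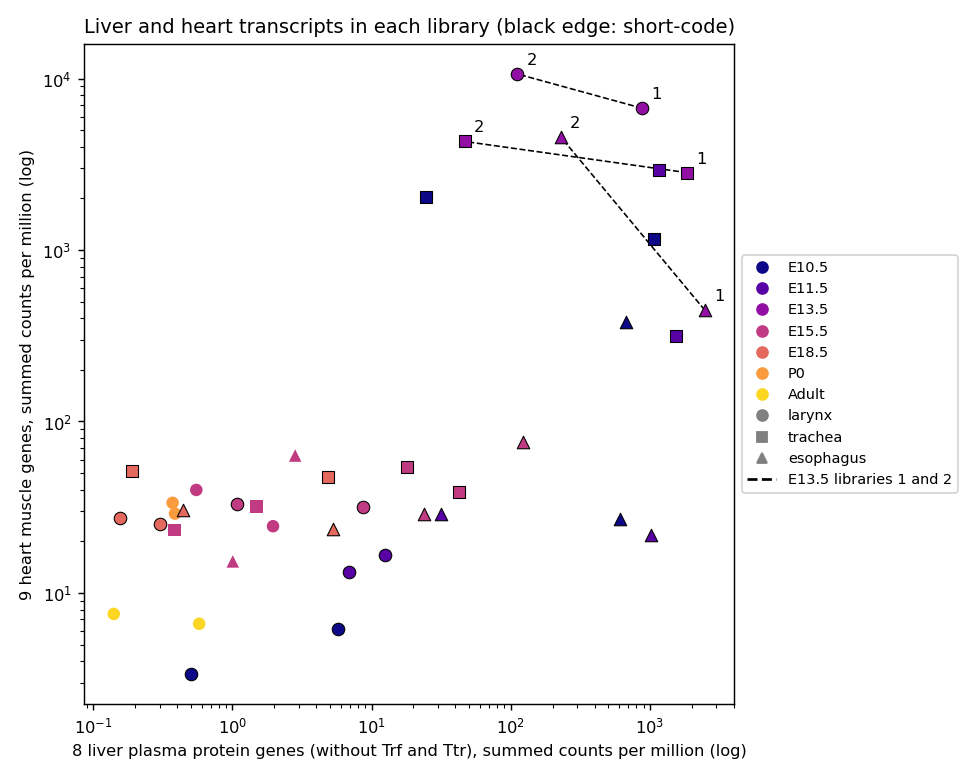
Summed level of the 9 heart genes against that of the 8 liver genes without Trf and Ttr, 1 point per library on logarithmic axes of CPM, with the 2 libraries of each E13.5 tissue joined. All 3 E13.5 lines slope downward, with library 1 at 878 to 2484 CPM of liver genes and library 2 at 46.7 to 230 CPM.

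Across all libraries the sums of all 10 liver genes and of the heart genes, as log2(CPM + 1), gave Pearson's r = 0.584 and Spearman's rho = 0.560 over 40 libraries, and r = 0.538 without the 2 libraries farthest from the median of the liver sum. It was 0.544 over the 30 short-code libraries and -0.0268 over the 10 index libraries. Within an age, over 6 short-code libraries each, r was 0.445 at E10.5, 0.669 at E11.5, -0.646 at E13.5, 0.529 at E15.5 and 0.960 at E18.5. The E18.5 value rested on Trf and Ttr, since with the 8 other genes it was 0.013. With those 8 genes r was 0.677 over 40 libraries and 0.512 over the 10 index libraries. Without the 2 libraries farthest from the median of the liver sum r was -0.079 at E10.5 and -0.296 at E15.5, so that these values rested on those libraries. By the same check r was 0.63 at E11.5, -0.738 at E13.5 and 0.445 at E18.5. Over the 20 differences between libraries of a group r was -0.287. The overall r was thus not seen within E13.5. The differences within groups cannot decide whether it held there, since both sums differed at least 2-fold in 2 groups only. With a list of 20 heart genes that includes those of embryonic skeletal muscle, r over 40 libraries was 0.106. The libraries share age and dissection, so no p-value is attached.

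The tests over all 36495 genes tested are given here as a description of the members, whose levels were known when they were chosen. From E10.5 to E13.5 the change was called in the larynx alone of the 3 tissues: 9 of 10 members, all but Ttr, were higher at E13.5, where 7.92% of all genes tested were called higher and 5.7% lower (edgeR quasi-likelihood test, adjusted p under 0.05). Trf had a log2 change of 4.09 ± 1.12 (standard error; adjusted p = 0.0132). Of the other lists, 13 of 30 other plasma proteins and all 9 heart genes were called higher. The count of members was 1 without library 1 of the E13.5 larynx and without either library of the E10.5 larynx. In the esophagus, where 4.80% of all genes were called higher and 2.58% lower, and in the trachea, with 3.95% and 4.03%, 0 of 10 members were called by edgeR, although 1, Ahsg, had an unadjusted p under 0.05 in each tissue, 6 were called in each without the filter and DESeq2 called 1 in each. The difference between tissues in this change was not tested.

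From E13.5 to E15.5, averaged over the 3 tissues in short-code libraries, 7 of 10 members were lower, against 10.7% of all genes. Alb had a log2 change of -4.22 ± 0.98 (adjusted p = 0.00165 by edgeR), Afp -6.31 ± 1.14, Apoa1 -4.55 ± 0.96, Apoa2 -5.85 ± 1.21, Fga -3.35 ± 1.02 and Ttr -3.68 ± 1.05. Serpina6, the seventh, was at 0 in most E15.5 libraries and its fitted change is no bound. The median of the 10 members was -3.95 and that of all genes 0.70. Among 30 other plasma proteins 19 were lower and 2 higher (median -2.81), among 11 hepatocyte transcription factors 4 were lower, with Hnf4a at -4.03 ± 1.16 (edgeR, adjusted p = 0.00979), and among the 9 heart genes all 9 were lower (median -8.68). Leaving out any 1 of the 12 libraries left 5 to 9 members called, and leaving out the 3 libraries rich in olfactory receptor genes left 7. Fewer liver cells and less of these transcripts per cell cannot be told apart in bulk tissue.

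From E11.5 to E13.5, 2 of 10 members, Alb (3.24 ± 1.02) and Ahsg (3.69 ± 1.19), were higher in edgeR's test, against 7.93% of all genes, and the median of the members was 2.24 against -0.59 for all genes. Both calls were lost without any 1 of 7 of the 12 libraries (library 1 of each tissue at E13.5, and at E11.5 both tracheal libraries, esophagus library 1 and larynx library 2) and without the 3 libraries rich in olfactory receptor genes, while 8 members were called without the E11.5 esophagus library 2, 5 without library 2 of the E13.5 esophagus or trachea, and 3 without that of the E13.5 larynx. From E15.5 to E18.5, Alb, Fgb and Ahsg were lower (3 of 10, against 1.56% of all genes), with 0 called without those 3 libraries, 0 without the short-code E15.5 larynx library 2 and 1 without the short-code E15.5 esophagus library 1 or any 1 of the 6 E18.5 libraries. Between E11.5 and E10.5, 0 members were called, where 5% of all genes were higher and 2.05% lower by edgeR. At an unadjusted p under 0.05 there were 0, without the filter 7 were called, and DESeq2 called 1. The median of the members was 1.69 and that of all genes 0.29.

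Within each tissue the fall to E18.5 from E13.5 was called for 6 of 10 members in the larynx, against 3.04% of all genes called lower and 5.43% higher, for 8 in the trachea, against 4.44%, and for 8 in the esophagus, against 3.95%. In all 3 tissues Alb, Afp, Apoa1, Apoa2, Ahsg and Serpina6 were among them. Ttr was not called in any of the 3, with log2 changes of -4.76 ± 1.95, -5.21 ± 1.92 and -6.57 ± 2.16 in the larynx, trachea and esophagus, and Trf had a mean of 193 CPM at E18.5 against 178 CPM at E13.5 in the trachea. Alb at E13.5 was at least 5410-fold higher than at E18.5 in the trachea (0 counts at E18.5, with 3 counts over both libraries as the floor) and 1480-fold higher in the esophagus (10 counts). Without library 1 of E13.5 the fold was at least 211 in the trachea and was 261 in the esophagus. These calls rest on few libraries. Without library 1 of E13.5, 1 call was left in the larynx (4 without library 2), 0 in the trachea and 0 in the esophagus. Without library 1 or library 2 of E18.5, 0 and 0 were left in the larynx, 3 and 0 in the trachea and 0 and 0 in the esophagus.

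Between organs, averaged over the embryonic ages, Afp had a lower level in larynx than in esophagus (log2 difference -4.78 ± 0.91, adjusted p = 0.0309 by edgeR) and than in the trachea (-4.46 ± 0.91, adjusted p = 0.0274). These were 1 of 10 members against 0.0575% of all genes called lower and 0.00548% called higher, and with Trf 2 of 10 against 0.192% and 0.0192%. The Afp and Trf calls were not found without the 3 libraries rich in olfactory receptor genes, and the larynx-to-esophagus call was lost without any 1 of 15 of 20 libraries. Between trachea and esophagus, where 0.107% of all genes were higher and 0.0986% lower, 0 members were called by edgeR (median log2 difference of the members 0.09), with 0 at an unadjusted p under 0.05; without the filter 2 were called and DESeq2 called 0.

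At E15.5 the index libraries had less of the liver genes than the short-code libraries. Fgb had 0 to 0.0783 CPM in the 6 index libraries, against 0.0634 to 8.63 CPM in the 6 short-code libraries, and Fga 0 to 0.0349 CPM against 0 to 6.75 CPM. Alb, Afp, Fga, Fgb and Ahsg were lower (5 of 10, against 16.1% of all genes called lower and 10.3% higher), with a log2 difference for Alb of -5.12 ± 1.10 (edgeR, adjusted p = 0.000852) and a median over all genes of -0.39. The count was 1 without the short-code larynx library 2, and 0 without the 3 libraries rich in olfactory receptor genes. Primitive erythroid genes, led by Hbb-y, summed to 6.375 to 28.86 CPM in the E15.5 index libraries other than esophagus library 2, which had 0.0279 CPM. In the short-code E15.5 libraries they summed to 1.015 to 3.641 CPM. The index esophagus library 2 also had 1.033 CPM of Myh3, a skeletal muscle gene, against 2583 CPM in library 1. The skeletal muscle list as a whole went the other way, with 31460 CPM in library 2 and 8595 CPM in library 1. Acta1 (10270 against 1515 CPM), Myh8 (3290 against 1423 CPM) and Mylpf (3135 against 1335 CPM) were likewise higher in library 2. Dissection, pool, exact stage and library preparation cannot be told apart between the kinds. In the larynx after birth, 0 members were called between P0 and E15.5 (0.362% of all genes higher, 0.2% lower) or between adults and P0 (2.1% and 2.03%), with 0 at an unadjusted p under 0.05 in edgeR, and DESeq2 called 0 in both; without the filter 3 and 0 were called. Trf had 36.01 and 67.65 CPM at P0 and 22.7 and 15.1 CPM in the E15.5 index larynx.

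Fitted as a smooth curve over embryonic age, with the 3 tissues together, 9 of 10 members varied (edgeR, adjusted p at most 0.01), against 34.3% of all genes. Serpina6 had the smallest adjusted p, 2.47e-08, and Trf, at 0.166, was the exception. By tissue, 9 members were called in the larynx (26.1% of all genes), 0 in the esophagus (5.87%, with 7 at an unadjusted p under 0.05 in edgeR and 1 called without the filter) and 1, Serpina6, in the trachea (3382 of 29415 genes). The curve for the larynx also took in its P0 and adult libraries, so it rested on 16 libraries against 12 in each other tissue. These counts therefore do not compare the tissues over embryonic age. With short-code libraries alone, 5 members were called in the larynx and 0 in the trachea.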

How the data were processed

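Bulk RNA-seq was analysed from 40 libraries. The deposited values are expected counts per gene, which the authors made with RSEM 1.3.3 and Bowtie2 2.4.2 on GRCm39 after FastQC 011.5. They were rounded to whole numbers here. Of 53647 identifiers 52610 matched GENCODE vM39. Levels are CPM of the library total. Tests used edgeR 4.0.16 (quasi-likelihood, R 4.3.3) with median-ratio factors, 20 group means and 36495 genes that had 1 normalized count or more in 2 or more libraries, with Benjamini-Hochberg adjustment. Age was also fitted as a natural spline (3 degrees of freedom). Alternatives were TMM, a minimum of 10 counts, no filter, DESeq2 1.42.0, a replicate block, pooled kinds of library, and each library left out in turn, which leaves a lone library assumed to vary like the others. Leaving out 3 libraries rich in olfactory receptor genes was chosen after seeing the data. Scripts were tested on simulated data. Python 3.11.15 with scipy 1.17.1 gave Wilson intervals, which cover counting error only. The members and gene lists were chosen with earlier results of these data known. Named genes were all members, the 4 genes highest in each list in the 5 libraries richest in the members, list genes past a test, and the 15 most like the members. Some genes that this rule names are not reported here. Kidney, lung alveolar, skeletal muscle and primitive erythroid lists were used for description only.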

Additional observations from a re-analysis of the deposited data

How the results depend on the processing

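The 10-member ratio of library 1 to library 2 at E13.5 kept its direction under every alternative run. On the log2 scale it became 2.44 (median-ratio counts), 2.98 (without Trf and Ttr), 2.59 (without Alb), 2.54 (without Afp) and 2.96 (without Trf) in the larynx. In the esophagus it became 3.22 (without mitochondrial genes in the total), 3.44 (without Trf and Ttr), 3.19 (without Afp) and 3.44 (without Trf), and in the trachea 4.69, 5.32, 4.65 and 5.31 under those settings, 4.71 with median-ratio counts and 4.54 without Alb. With 20 heart genes r was 0.106 over 40 libraries and 0.182 over 30.

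Summed over the comparisons of a kind, member calls became 34 without the filter and 7 without the 3 libraries rich in olfactory receptor genes for the age steps, and 50 without the filter and 9 with both kinds pooled for the changes within tissues, where DESeq2 called 32921 genes and the pooled fit 11072. Between tissues, calls over all genes were 2460 without the filter and 855 with DESeq2, and member calls 15, 12, 1 (pooled) and 0 (without those 3 libraries). Between the kinds of library they were 9 without the filter and 0 without those 3 libraries. After birth, calls were 4927 genes and 3 members without the filter, 4800 genes with DESeq2 and 572 pooled. With short-code libraries alone the age curve called 3578 genes and 5 members in the larynx, 4849 genes in the esophagus and 0 members in the trachea. Without the filter it called 1 member in the esophagus and 2 in the trachea. The causes were not tested.

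Leaving out each library in turn gave 8 to 18 member calls over the age steps, 19 to 32 over the changes within tissues, 0 to 3 between tissues (98 to 351 over all genes), 1 to 5 between the kinds of library, and 451 to 1522 calls over all genes after birth. Ahsg reversed between E18.5 and E13.5 in the trachea without the E13.5 library 1, to 0.79 (edgeR, adjusted p = 1), where 1 count was left at E13.5, and was -11.83 at the other end of that range. Over the members' 51 called values, 299 results under the other alternatives kept their call and 53 lost it, and with a library left out 218 kept it, 169 lost it and 1 reversed. Replicate numbers were not taken as pairing the samples over the series: over 190 pairs of groups the correlation of deviations ran from -0.38 to 0.38, with a median of 0.0058 and 38 over 0.1. Among the E13.5 tissues it was 0.197, 0.192 and 0.238. With the replicate block 6 in place of 7 members were lower at E15.5 than at E13.5, and 0 in place of 2 higher at E13.5 than at E11.5. Depth limits the late libraries, where a member at 0 allows up to 3 counts.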
